A study of Mus musculus with 8 samples.

Results

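The fatty acid desaturases Fads1, Fads2, Fads3 and Scd2 and the fatty acid elongases Elovl1, Elovl2, Elovl3 and Elovl5 were followed in mouse liver 6 days after an adenovirus that carries LeXis, a long non-coding RNA encoded beside the cholesterol efflux gene Abca1. The 8 genes were found by their names in the array files, which gave 11 probes of the 55681 non-control probes on the array. All 11 probes were well above background on all 8 arrays and entered the test, and the 8 genes are among 23890 genes tested. Fads2, Fads3 and Elovl1 had 2 probes each and the other 5 genes had 1 each. Each gene is represented by its brighter probe, and the second probe is given beside it.

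The study set livers labelled AdLeXis (4 arrays) against livers labelled AdGFP (4 arrays), an adenovirus that carries green fluorescent protein. Per the labels, both groups were bl6 mice of 12 weeks on a chow diet, and total RNA was taken on day 6. The treatment text of the labels names another pair of vectors, a control and one against Raly, so the groups here follow the treatment tag and the titles. The probe of Raly, which encodes an RNA-binding protein, averaged 11.63 ± 0.11 on AdLeXis arrays and 11.46 ± 0.20 on AdGFP arrays (log2 scaled signal, SD, n = 4 each), and the groups overlapped. No probe is named LeXis (0 of those kept), so the level of the carried RNA was not analysed here. The promoter of the adenoviral insert is not given in the sources used here, and the labels leave out whether the arrays of a group stand for different mice, so a p-value here reflects array-to-array spread, which may be technical.

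Desaturases place double bonds into fatty acyl chains, and elongases add the carbons that lengthen them. Mammalian liver makes arachidonic and docosahexaenoic acid from dietary linoleic and alpha-linolenic acid by alternating desaturation by Fads2 and Fads1 with elongation by Elovl5 and Elovl2. Stearoyl-CoA desaturases such as Scd2 make monounsaturated chains from saturated ones, and Elovl1 and Elovl3 lengthen saturated and monounsaturated chains to very long ones. In liver these genes are known as targets of SREBP-1, LXR and PPARalpha to differing degrees.

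The signal of each gene comes from 60-base probes, and the sequences that the comparisons rest on are shown here so that the measured stretch of each transcript is visible. All are 5′ to 3′ as the scanner files give them, with coordinates of mouse build mm9. The second probe of Fads2 lies on chr19:10163229-10163288 (minus strand) within the RefSeq transcript NM_019699, and its capitals mark bases 17 to 31, the codons of the first histidine box, which binds the iron of the desaturase.
Fads2, second probe: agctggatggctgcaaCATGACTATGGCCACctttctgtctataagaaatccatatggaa
The other probes are given by their first 30 bases. The Fads1 probe lies on chr19:10270530-10270589 (plus strand), the first Fads2 probe on chr19:10137760-10137819 (minus strand, from a cDNA clone), the Elovl5 probe on chr9:77832205-77832264 (plus strand), and the Elovl1 probes on chr4:118105163-118105222 and chr4:118104741-118104800 (plus strand).
Fads1: gagaatataggaacatgcccggagagacct
Fads2, first probe: tttagctgttgtgttaacatttcctacaga
Elovl5: ctcaatacaaaaattataacatttgatagt
Elovl1, first probe: ggcctggaagtcaggctgtgcgctcacttg
Elovl1, second probe: attgcccacctaagtgcctcaggactgcac
The first 30 bases of the paired probes of Fads2 and of Elovl1 are different, so each pair reads separate stretches of its gene. The probes of Fads3 on chr19:10132641-10132700 and chr19:10134543-10134602 (plus strand), of Scd2 on chr19:44381024-44381083 (plus strand), of Elovl3 on chr19:46209762-46209821 (plus strand) and of Elovl2 on chr13:41277884-41277943 (minus strand) complete the set. Fads1, Fads2 and Fads3 thus lie next to each other on chromosome 19, with Scd2 and Elovl3 further along the same chromosome.

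Of the 8 genes, 2 were called lower in AdLeXis liver, Fads1 and Elovl5, and 0 were called higher (limma, adjusted p under 0.05). The background is that 8.8% of the 23890 genes were called lower and 8.74% higher. At an unadjusted p under 0.05, 3 of the 8 genes were lower and 1 was higher, against 16% and 16.1% of all genes. The sign of the difference was negative for 7 of the 8 genes and positive for 1, Elovl1. The median difference over the 8 genes was -0.34 on the log2 scale, against -0.0022 over all genes tested. The 4 AdLeXis arrays lay wholly below the 4 AdGFP arrays for 3 genes, Fads1, Scd2 and Elovl5, and wholly above them for Elovl1. Such separation was found for 12.3% of all genes in the lower direction and 12.4% in the higher direction.

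**Figure D1:**
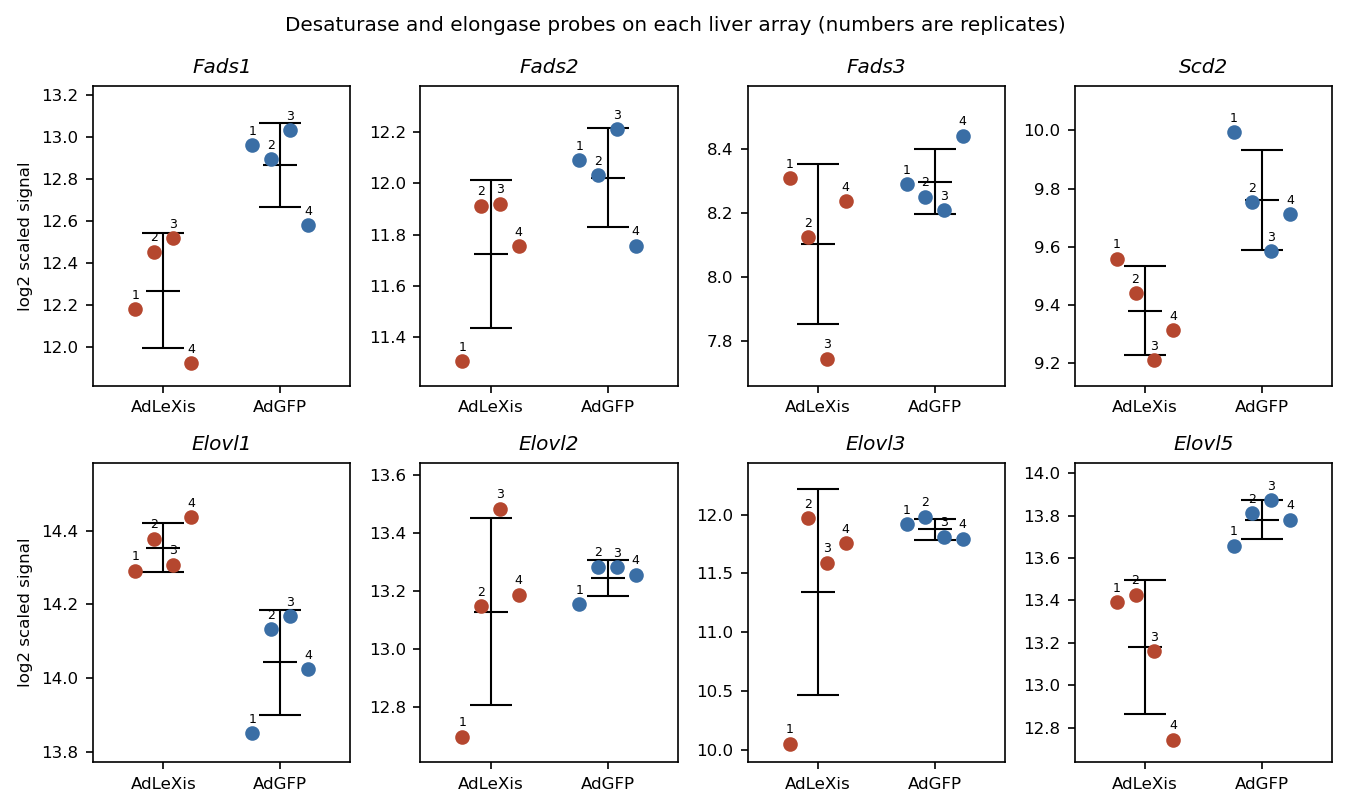
Log2 scaled signal (vertical axis, a separate range in each panel) of the probe that represents each gene on the 4 AdLeXis arrays (left) and the 4 AdGFP arrays (right), numbered by replicate, with the mean and SD as bars. The groups stand apart for Fads1, Scd2 and Elovl5 (AdLeXis lower) and for Elovl1 (AdLeXis higher), and AdLeXis replicate 1 sits far below the other arrays for Elovl3.

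Fads1, the delta-5 desaturase that makes arachidonic and eicosapentaenoic acid, was lower in AdLeXis liver. Its log2 scaled signal was 12.18, 12.45, 12.52 and 11.92 on the AdLeXis arrays (replicates 1 to 4), against 12.96, 12.89, 13.03 and 12.58 on the AdGFP arrays. Every AdLeXis array was below the lowest AdGFP array, which was replicate 4. The means were 12.27 ± 0.27 in AdLeXis and 12.87 ± 0.20 in AdGFP (SD, n = 4 each), a difference of -0.60 (SE 0.16, 95% confidence interval -0.96 to -0.24, limma adjusted p = 0.0342), so the AdLeXis signal was 66.1% of that in AdGFP. Of all genes tested, 6.04% had a lower difference. The call was kept without AdLeXis replicate 2 (limma adjusted p = 0.0481), AdLeXis replicate 3 (0.0345) or AdGFP replicate 4 (0.0294). It was lost without AdLeXis replicate 1 (0.0687) or 4 (0.0737), without AdGFP replicate 1 (0.0837), 2 (0.0774) or 3 (0.0823), and with no filter on dim probes (0.0656).

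Fads2, the delta-6 desaturase that opens the pathway, was not called. Its first probe read 11.30, 11.91, 11.92 and 11.75 on the AdLeXis arrays, against 12.09, 12.03, 12.21 and 11.76 on the AdGFP arrays. AdLeXis replicate 1 was the lowest array, and AdGFP replicate 4 fell among the other AdLeXis arrays. The difference was -0.30 (SE 0.16, interval -0.67 to 0.07, limma adjusted p = 0.24), with means of 11.72 ± 0.29 in AdLeXis and 12.02 ± 0.19 in AdGFP. The second probe, the one over the histidine box printed above, read 9.17, 9.78, 9.85 and 9.23 on the AdLeXis arrays, against 10.03, 10.14, 10.15 and 9.94 on the AdGFP arrays. On that probe every AdLeXis array was below every AdGFP array. Its difference was -0.56 (SE 0.17, interval -0.95 to -0.16). The limma adjusted p over the 34424 kept probes was 0.0636, and 7.18% of those probes were called lower. The intervals of the 2 Fads2 probes overlap, and the difference between them was not tested.

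Fads3, a desaturase of the same gene cluster that acts on sphingoid bases, differed by less than the spread between arrays. It read 8.31, 8.12, 7.75 and 8.24 on the AdLeXis arrays, against 8.29, 8.25, 8.21 and 8.44 on the AdGFP arrays. AdLeXis replicate 3 was low and the other AdLeXis arrays lay among or near the AdGFP arrays. The difference was -0.19 (SE 0.13, interval -0.49 to 0.11, limma adjusted p = 0.354), and it was 0.0097 after normexp background correction with quantile normalization. On its second probe the difference was -0.047 (SE 0.11, adjusted p = 0.822 over the kept probes).

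Scd2, a delta-9 desaturase that makes oleic and palmitoleic acid and is abundant in mouse brain, was not called although its groups did not overlap. It read 9.56, 9.44, 9.21 and 9.31 on the AdLeXis arrays, against 9.99, 9.75, 9.59 and 9.71 on the AdGFP arrays. The highest AdLeXis array, replicate 1, was just below the lowest AdGFP array, replicate 3. The difference was -0.38 (SE 0.12, interval -0.64 to -0.11), with means of 9.38 ± 0.15 in AdLeXis and 9.76 ± 0.17 in AdGFP, and the limma adjusted p was 0.0563. That p moved to 0.0439 when arrays were scaled on their median, to 0.0239 with normexp and to 0.0437 without AdLeXis replicate 1. It rose to 0.0703 with quantile normalization, 0.0604 with cyclic loess, 0.0989 with no filter on dim probes and 0.132 without AdLeXis replicate 4. Scd2 was called in 6 of 20 alternatives, so it lies near the threshold.

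Elovl5, which lengthens the polyunsaturated products of Fads2, was lower in AdLeXis liver. It read 13.39, 13.43, 13.16 and 12.74 on the AdLeXis arrays, against 13.66, 13.81, 13.87 and 13.78 on the AdGFP arrays. The AdGFP arrays were close together, and the AdLeXis arrays were all below them, replicate 4 most. The means were 13.18 ± 0.31 in AdLeXis and 13.78 ± 0.090 in AdGFP (SD, n = 4 each), a difference of -0.60 (SE 0.15, interval -0.95 to -0.25, limma adjusted p = 0.0307), so the AdLeXis signal was 65.9% of that in AdGFP. The call was kept in 3 of the 8 fits that left out 1 array. It was lost, with limma adjusted p of 0.066, without AdLeXis replicate 3, and with 0.0531, 0.0713, 0.073 and 0.0644 without AdGFP replicates 1, 2, 3 and 4. It was also lost with no filter on dim probes (adjusted p = 0.0608) and with the slide column as a block (adjusted p = 0.0603).

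The window around the Elovl5 start site is shown because Elovl5 was called and its promoter was in the sequence table, as was that of 5 of the 8 genes (7 windows, RefSeq, GRCm38.p6). The window is chr9:77917115-77917414 (plus strand), 250 bases before to 50 bases after the annotated start, and capitals mark one E-box (CACGTG, 161 bases before the start) and 2 CCAAT boxes on the opposite strand (71 and 17 bases before the start).
Elovl5 promoter: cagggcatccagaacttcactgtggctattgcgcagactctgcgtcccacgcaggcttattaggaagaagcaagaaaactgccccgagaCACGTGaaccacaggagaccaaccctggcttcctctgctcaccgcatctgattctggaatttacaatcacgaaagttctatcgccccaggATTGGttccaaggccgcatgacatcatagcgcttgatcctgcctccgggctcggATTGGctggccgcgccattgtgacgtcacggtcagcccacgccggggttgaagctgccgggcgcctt
Each motif was searched on both strands in all 32851 windows of the table. The E-box, in 7.15% of all windows, was found in that of Elovl5 and in none of the other 6 windows, those of Elovl1, Elovl2, Fads2 and Fads3. No window of Fads1, the other gene called, or of Scd2 or Elovl3 was in the sequence table, so these were not searched. CCAAT, in 37.4% of all windows, was found in a window of Elovl1, of Elovl5 and of Fads3. The GC box GGGCGG, in 35.7% of all windows, was found in windows of Elovl1, Elovl2, Fads2 and Fads3 and not in that of Elovl5. The sterol regulatory element TCACNCCAC, in 1.24% of all windows, was found in 0 of the 7, which says only that these letters are not in these windows.

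Elovl2, which acts after Elovl5 on the way to docosahexaenoic acid, differed by less than the spread between arrays. It read 12.70, 13.15, 13.48 and 13.19 on the AdLeXis arrays, against 13.15, 13.28, 13.28 and 13.26 on the AdGFP arrays. The AdLeXis arrays lay both above and below the AdGFP arrays and spanned 0.78, against 0.13 in AdGFP. The difference was -0.11 (SE 0.15, interval -0.47 to 0.24, limma adjusted p = 0.66), and without AdLeXis replicate 1 it was 0.03.

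Elovl1, which makes saturated and monounsaturated very long chains for sphingolipids, was the one gene of the 8 with a higher mean in AdLeXis. Its first probe read 14.29, 14.38, 14.31 and 14.44 on the AdLeXis arrays, against 13.85, 14.13, 14.17 and 14.02 on the AdGFP arrays. Every AdLeXis array was above every AdGFP array, by a narrow margin between AdLeXis replicate 1 and AdGFP replicate 3. The means were 14.35 ± 0.067 in AdLeXis and 14.04 ± 0.14 in AdGFP, a difference of 0.31 (SE 0.093, interval 0.10 to 0.52, limma adjusted p = 0.0526), which misses the threshold. It passed with quantile normalization (0.37, adjusted p = 0.0222), cyclic loess (0.37, adjusted p = 0.0207) and normexp (0.58, adjusted p = 0.00209), and not with median scaling (0.23, adjusted p = 0.234). The second probe read 11.09, 11.29, 11.20 and 11.18 on the AdLeXis arrays, against 10.83, 11.24, 10.99 and 11.18 on the AdGFP arrays. There the groups overlapped, and the difference was 0.13 (SE 0.11, adjusted p = 0.475 over the kept probes).

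Elovl3, which lengthens saturated and monounsaturated chains and cycles with the circadian clock in mouse liver, had the widest spread of the 8 on the AdLeXis arrays (SD 0.87, against 0.088 in AdGFP). It read 10.05, 11.97, 11.59 and 11.75 on the AdLeXis arrays, against 11.92, 11.98, 11.81 and 11.80 on the AdGFP arrays. On 3 AdLeXis arrays it lay below all AdGFP arrays, but only replicate 1 was far from them, and replicate 2 fell among them. The AdLeXis arrays spanned 1.92 and the AdGFP arrays 0.185. The difference was -0.53 (SE 0.38, interval -1.40 to 0.33, limma adjusted p = 0.374), and without AdLeXis replicate 1 it was -0.11, so its size rests on that array. AdLeXis replicate 1 was also the lowest AdLeXis array for Fads2 and Elovl2, while replicate 4 was the lowest for Fads1 and Elovl5.

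**Figure D2:**
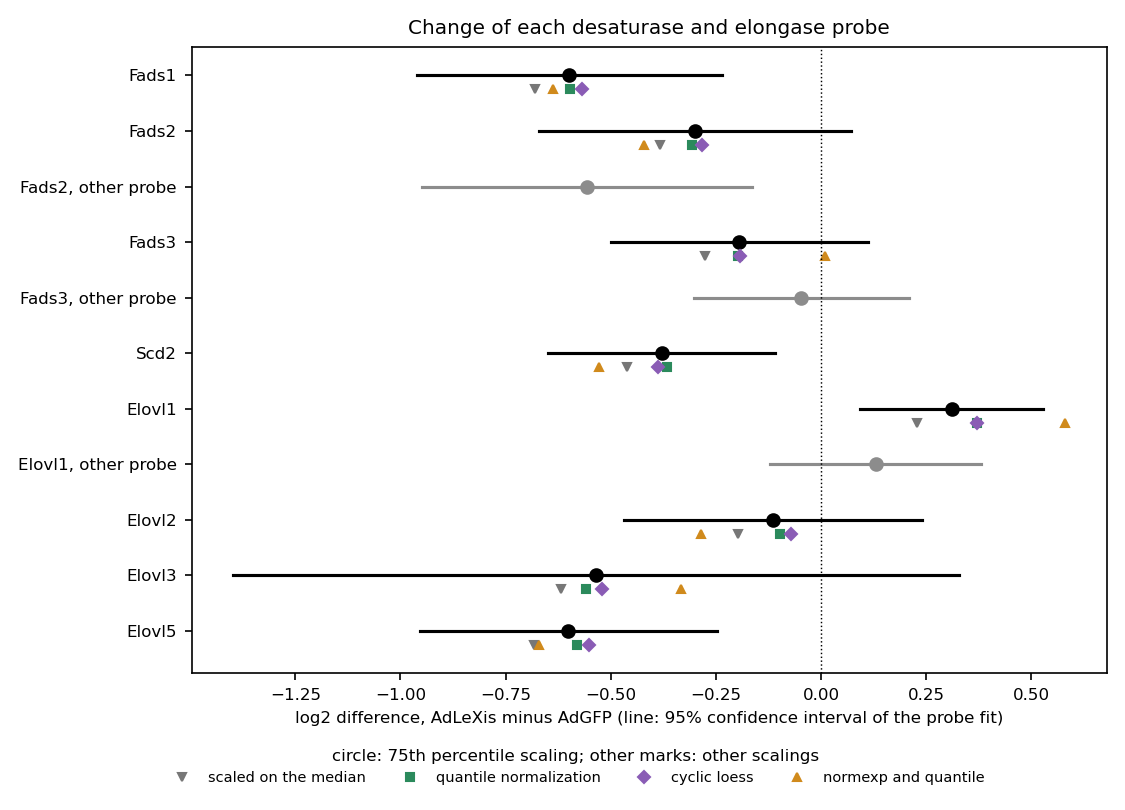
Log2 difference, AdLeXis minus AdGFP (horizontal axis), of each of the 11 probes with its 95% confidence interval, in black for the probe that represents the gene and grey for the second probe; the coloured marks give the gene's difference under 4 other scalings. Fads1 and Elovl5 lie near -0.60 under each scaling, Elovl1 lies right of 0 under each, and the mark of Fads3 with normexp lies just right of 0.

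Under the main scaling and 4 others (median, quantile, cyclic loess, and normexp with quantile), the difference of Fads1 ran from -0.68 to -0.57 and that of Elovl5 from -0.68 to -0.55, and both were called under all 5. The difference of Scd2 ran from -0.53 to -0.37 and was called under 2, and that of Elovl1 ran from 0.23 to 0.58 and was called under 3. Fads2 ran from -0.42 to -0.28, Elovl2 from -0.29 to -0.07 and Elovl3 from -0.62 to -0.33, none of them called under any of the 5. Genes of the same brightness were close to no change: the median difference was 0.0098 over the 1237 genes in the bin of Fads1, -0.0033 over the 908 in that of Elovl5 and Elovl2, and -0.03 over the 636 in that of Elovl1.

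Whether related enzymes changed unequally was tested on their ratios within an array, for 4 pairs of neighbouring steps or of the same family, by an exact two-sided permutation test over 70 relabellings of the arrays, whose smallest possible p is 0.0286. Elovl1 over Elovl3 changed by 0.85 on the log2 scale, with ratios of 3.01 ± 0.83 in AdLeXis and 2.17 ± 0.18 in AdGFP, and gave the smallest exact p of 0.0286, or 0.114 adjusted over the 4 pairs. Without AdLeXis replicate 1 that change was 0.44. It used the brighter Elovl1 probe, and with the mean of a gene's probes it was 0.75. The second Elovl1 probe, on which the groups of Elovl1 overlapped, was not tested in a ratio of its own. Elovl2 over Elovl5 changed by 0.49 (exact p = 0.143, adjusted 0.191), Fads1 over Fads2 by -0.30 (exact p = 0.143, adjusted 0.191) and Fads3 over Fads2 by 0.11 (exact p = 0.743, adjusted 0.743). None of the 4 passed after adjustment, which does not show that the genes of a pair changed alike.

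The plot of ratios shows how far the AdLeXis arrays were spread. The ratio of Fads1 over Fads2 had an SD of 0.29 in AdLeXis and 0.026 in AdGFP, and that of Elovl2 over Elovl5 an SD of 0.53 in AdLeXis and 0.038 in AdGFP. Read from the brighter probe of each gene, these genes of the polyunsaturated pathway kept nearly the same ratio on the 4 AdGFP arrays. For Fads1 over Fads2 the choice of probe matters: Fads1 differed by -0.60, the first Fads2 probe by -0.30 and the second by -0.56. With the mean of a gene's probes that ratio changed by -0.17 (exact permutation test, adjusted p = 0.267). The spread of the ratio to the second Fads2 probe was not analysed. The level of a ratio between 2 probes carries no meaning of its own, only its change does.

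**Figure D3:**
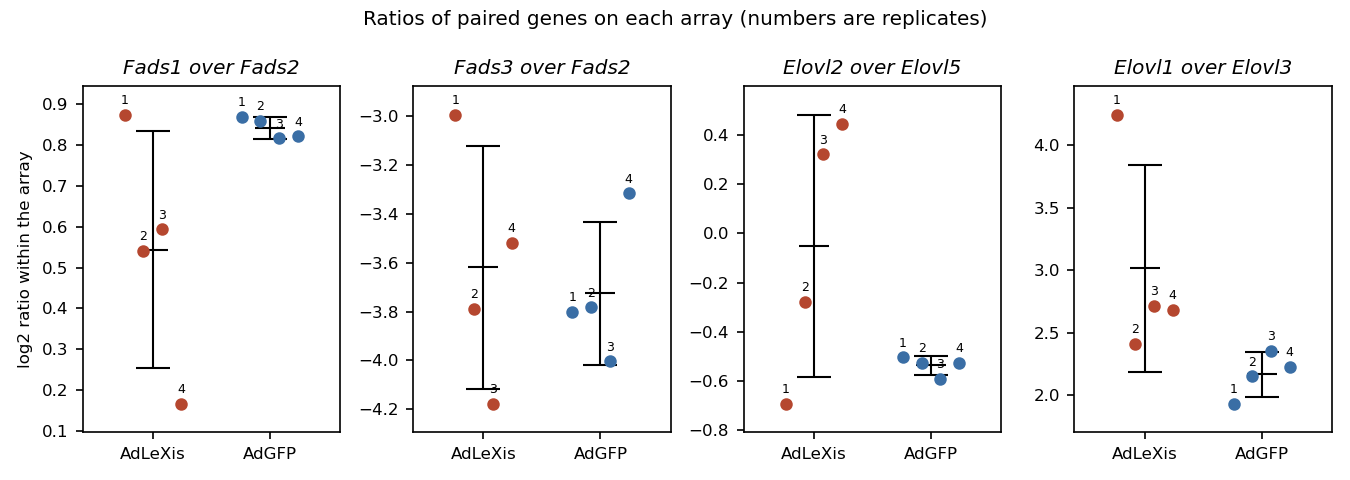
Log2 ratio within each array (vertical axis) of 4 pairs of genes, AdLeXis arrays left and AdGFP arrays right, numbered by replicate, with the mean and SD as bars. Each gene is read from its brighter probe. The AdGFP arrays lie close together for Fads1 over Fads2 (SD 0.026) and Elovl2 over Elovl5 (SD 0.038), and the AdLeXis arrays are scattered (SD 0.29 and 0.53).

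Likeness between the genes over the 8 arrays is described by Pearson's r with no test, since the arrays share the group difference. Fads1 and Elovl5 had r = 0.853, and 0.536 after the group means were taken out. Fads2 and Elovl3 had r = 0.843, and 0.802 within groups, and Elovl2 and Elovl3 had 0.793, and 0.78 within groups. Fads1 and Fads2 had r = 0.77, and 0.638 within groups, and Fads2 and Elovl2 had 0.739, and 0.74 within groups. The pairs that hold Elovl3 share its low AdLeXis replicate 1. Scd2 and Elovl1 ran opposite ways, with r = -0.899, and -0.685 within groups. The lowest within-group values were those of Fads3 with Elovl2 (-0.785), Fads1 with Fads3 (-0.757), Scd2 with Elovl2 (-0.747) and Fads2 with Fads3 (-0.727). Over all genes with a name, the profile most like that of Fads1 over the 8 arrays was Golga7b (r = 0.989), followed by Mef2a (0.986). For Fads2 these were Mup5 (0.975) and Smad1 (0.971), for Fads3 Glp2r (0.953) and Elf3 (0.95), and for Scd2 Lgmn (0.995) and Ncoa7 (0.983). For Elovl1 they were Xrcc1 (0.985) and Hyal2 (0.984), for Elovl2 Ero1b (0.961) and Fnip1 (0.958), for Elovl3 Traf3 (0.989) and Abcd3 (0.976), and for Elovl5 Osgep (0.983) and Gbp2 (0.981). Each is the top of a search over many genes on 8 arrays with the group means left in, so a high r by itself says little.

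Among the other desaturases, 2 of 6 were called lower and 0 higher, with a median difference of -0.28. The counts of this and the following lists stand beside 8.8% of all genes tested called lower and 8.74% called higher. Scd1, the main stearoyl-CoA desaturase of mouse liver, averaged 15.81 ± 0.30 in AdLeXis and 16.64 ± 0.18 in AdGFP, a difference of -0.82 (SE 0.16, limma adjusted p = 0.0118). That difference was -0.91 with median scaling, -0.72 with cyclic loess, -0.61 with quantile normalization and -0.60 with normexp, and it was called under each. Scd3 differed by -1.18 (SE 0.18, adjusted p = 0.00431), but its probe also lists Scd1 transcripts, so these readings are not separate. The size of the Scd3 difference depended on the processing: it ran from -1.31 to -0.37 over 19 alternatives and was called in 18. Degs1, which desaturates dihydroceramide, differed by 0.0025 (adjusted p = 0.99), and Degs2 by -0.42 (adjusted p = 0.0629). Set beside these, the difference of Scd2 was -0.38 and that of Fads1 -0.60.

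Of the other elongases, Elovl6 and Elovl7 were measured and Elovl4 was not, and 0 of the 2 were called. Elovl6, which lengthens palmitate to stearate, differed by -0.25 (SE 0.15, limma adjusted p = 0.317). The remaining enzymes of the elongation cycle, which reduce and dehydrate each new intermediate, had 0 of 6 called and 2 at an unadjusted p under 0.05, both lower. These were Hacd4, with a difference of -0.52 (adjusted p = 0.0586), and Hacd3, with -0.30 (adjusted p = 0.052). Tecr and Hsd17b12, which every elongase of the cycle uses, differed by -0.17 (adjusted p = 0.381) and 0.06 (adjusted p = 0.84).

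Desaturases draw electrons through cytochrome b5 and its reductases, and of 5 such genes 2 were called lower and 1 higher. Cyb5r1 was higher, at 10.46 ± 0.16 in AdLeXis and 9.82 ± 0.04 in AdGFP (difference 0.65, SE 0.094, limma adjusted p = 0.00385). Cyb5r4 was lower, with a difference of -0.31 (adjusted p = 0.0298). Cyb5a, cytochrome b5 itself, differed by -0.29 (adjusted p = 0.0423) under the main scaling and by 0.03 under quantile normalization, so its direction depends on the scaling.

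The long-chain acyl-CoA synthetases, which activate the fatty acids that both enzyme families use, had 1 of 4 called, Acsl5 (-0.34, limma adjusted p = 0.0443), which missed the threshold with median scaling (0.0511) and with normexp (-0.085, adjusted p = 0.531). Of 9 genes of peroxisomal shortening, through which docosahexaenoic acid is finished, 1 was called, the transporter Abcd2, which was higher by 1.15 (SE 0.22, adjusted p = 0.0108). The list's median was -0.014, and its sign turned with the scaling: it was -0.096 with median scaling, 0.22 with quantile normalization, 0.093 with cyclic loess and 0.12 with normexp. Of 6 genes that place acyl chains into phospholipids, 2 were called lower, Lpcat2 (-0.79, adjusted p = 0.0263, but -0.22 and 0.112 with normexp) and Lpcat1 (-0.50, adjusted p = 0.0398). The one called higher was Mboat7, which puts arachidonic acid into phosphatidylinositol (0.36, adjusted p = 0.0246, but 0.28 and 0.151 with median scaling). Mboat1 differed by -0.40 (limma adjusted p = 0.0675) and was not called.

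The lipogenic SREBP-1 and LXR genes had 3 of 14 called lower and 1 higher, with a median of -0.01 that ran from -0.093 to 0.025 under the 4 other scalings. Fasn, fatty acid synthase, was at 9.60 ± 0.23 in AdLeXis and 10.10 ± 0.12 in AdGFP (difference -0.50, limma adjusted p = 0.0303). Nr1h2, the LXRbeta receptor, and Acacb, acetyl-CoA carboxylase beta, were lower, with differences of -0.39 (adjusted p = 0.0304) and -0.36 (adjusted p = 0.0437). Both missed the threshold with quantile normalization (adjusted p = 0.0521 for Nr1h2 and 0.0543 for Acacb) and cyclic loess (0.0599 for Nr1h2 and 0.0618 for Acacb), and Nr1h2 differed by -0.0086 with normexp. Thrsp, a lipogenic gene of liver and fat, was higher by 0.56 (adjusted p = 0.0371, but 0.0735 with median scaling). PPARalpha and its targets had 0 of 12 called lower and 1 called higher, with a median of 0.28. At an unadjusted p under 0.05, 0 of the 12 were lower and 5 higher, against 16% and 16.1% of all genes. The one called was Hadha, of mitochondrial beta-oxidation (0.33, adjusted p = 0.0434, but 0.25 and 0.221 with median scaling). Acadm differed by 0.34 (limma adjusted p = 0.0696) and Ppara, which encodes PPARalpha, by 0.27 (adjusted p = 0.119), and neither was called. Over all 9 lists together 64 of 68 genes were measured, of which 10 were called lower, 5 higher and 49 not. Of all genes tested, 8.8% were called lower and 8.74% higher. The median over the 9 lists was -0.017, against -0.34 over the 8 desaturases and elongases and -0.0022 over all genes tested.

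**Figure D4:**
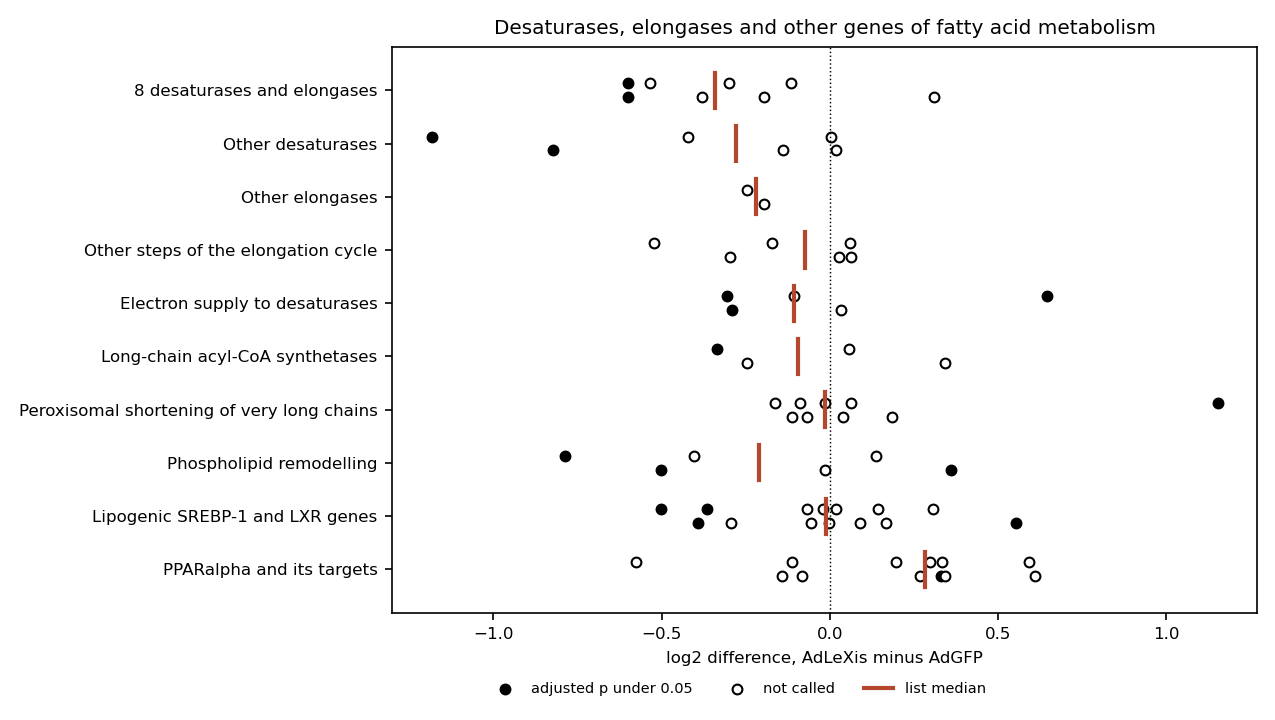
Log2 difference, AdLeXis minus AdGFP (horizontal axis), of the 8 desaturases and elongases (top line) and of 9 lists of related genes (lines below); filled circles passed an adjusted p of 0.05, open circles did not, and bars mark list medians. The medians run from -0.34 for the 8 genes to 0.28 for PPARalpha and its targets.

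Markers of the cells in liver moved between the groups, and their part in the results above was not tested. Their counts stand beside 8.8% of all genes tested called lower and 8.74% called higher. All 8 hepatocyte markers were measured, 5 were called lower and 0 higher, and their summed signal was 1142000 to 1300000 in AdLeXis, against 1710000 to 1757000 in AdGFP. Their median difference was -0.40 under the main scaling and 0.0014 under quantile normalization, and that of Alb, albumin, was -0.61 under the main scaling and 0.27 with normexp. The 5 called averaged above 16 in both groups, where most genes were lower under the main scaling. The median difference was -0.16 at a log2 signal of 16 to 17 (88.5% of genes lower), -0.37 at 17 to 18 (95.2%) and -0.55 at 18 to 19 (100%). Whether the hepatocyte markers differed from other genes this bright was not tested. All 6 T and natural killer cell markers were called lower, with a summed signal of 3204 to 3917 on AdLeXis arrays and 7068 to 7466 on AdGFP arrays. Of 8 Kupffer cell and macrophage markers 2 were called lower, with sums of 37560 to 47050 in AdLeXis and 43700 to 61270 in AdGFP. Of the adipocyte markers 3 of 5 were measured and 0 called, Adipoq and Lep were not kept, and the sums were 858.3 to 3484 in AdLeXis and 219.6 to 1365 in AdGFP. No B cell or endothelial marker was called (0 of 4 and 0 of 6), 2 of 6 stellate cell markers and 1 of 4 bile duct markers were called lower, and each measured marker was above background on at least 4 arrays. In RNA of whole liver, fewer cells of a type and less RNA per cell cannot be told apart.

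The AdLeXis arrays were brighter before scaling, with a 75th percentile of the processed intensity of 381 to 448, against 220 to 297 on AdGFP arrays. In AdLeXis 62.6% to 67.7% of spots were well above background, against 58.9% to 62.5% in AdGFP. Over genes, scaled arrays had correlations of 0.991 to 0.994 within a group and of 0.981 to 0.989 between groups (genes are no replicates). All 8 arrays were on 1 slide with 1 scan time, and each group filled a row of the slide, so slide row and group cannot be told apart. The number of arrays limits the precision.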

How the data were processed

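Total RNA was hybridised to 8 one-colour Agilent arrays. The files deposited are scanner output with linear intensity per spot, background-subtracted and not scaled between arrays, per the file headers. These name Agilent Feature Extraction version 11.5.1.1 and the submitters' processing notes 11.5.1.11. The deposited value table holds the same intensity (largest relative difference 0), so its scale is linear with no centring. Probe coordinates are of build mm9, per the file headers.

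The log2 of the processed intensity was shifted to a common 75th percentile per array. Controls were dropped, as were 127 to 256 outlier spots an array, and repeated spots of a probe averaged. Kept probes (34424) were well above background on 4 or more arrays, with 2 or more values in both groups, and a gene is its brightest kept probe. Names in the files were updated by RefSeq accession (27656 probes) or symbol (3722) and otherwise kept (24303). Groups were compared with limma 3.58.1 in R 4.3.3 (lmFit and eBayes, two-sided, Benjamini-Hochberg over 23890 genes, threshold 0.05), and the fit was tested on simulated data. All 8 genes are named, with their 2 most alike profiles; of each list, the genes of smallest p were named (up to 4 at an unadjusted p under 0.05, or the first), and Degs1, Tecr and Hsd17b12 were named after their values were seen. The genes and lists were chosen with earlier results of these data known. Other scalings, probe filters, variance models, the slide column as a block and leaving out each array were tried. The values of 1 gene of the lists are not reported here.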

Additional observations from a re-analysis of the deposited data

Results flagged for a closer look

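In 3 of 100 groups of 4 values examined, the array farthest out was separated from the nearest other by more of the group's range than Dixon's 95% critical value for 4 values allows. Chance gives about 1 in 20 such groups. The ratio of Elovl1 over Elovl3 in AdLeXis had a gap of 0.833 of its range, with replicate 1 at 4.24 and the other AdLeXis arrays from 2.41 to 2.72. The gap of Elovl3 itself in AdLeXis was 0.804 and that did not reach the critical value. Abcd2 had a gap of 0.844 in AdLeXis, with replicate 1 at 5.65 and the others from 6.35 to 6.48. Acadm, a mitochondrial acyl-CoA dehydrogenase, had a gap of 0.934 in AdLeXis, with replicate 2 at 15.64 and the others from 15.36 to 15.38.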

How the results depend on the processing

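Over 20 alternatives Fads1 stayed called in 14, Elovl5 in 13, Scd2 in 6 and Elovl1 in 5. These 4 with Fads2 and Elovl3 kept their sign in all 20, but not all of the 20 could change a sign. The deposited value table holds the same intensities as the main fit and could change nothing. The probe filters, the variance models, the block and testing each probe on its own left the difference of each gene as it was. The cause of each change in a call was not tested. With no filter on dim probes more genes are tested, and 0 of the 8 genes were called lower (Fads1 -0.60, Elovl5 -0.60). Of the 8 genes 1, Elovl1, was called higher with quantile normalization (0.37), cyclic loess (0.37), normexp (0.58), all 8 arrays above background (0.31) and a variance trend (0.31). Scd2 passed with median scaling (-0.46), normexp (-0.53), all 8 arrays above background (-0.38) and the trend (-0.38). Fads3 turned to 0.0097, and Alb to 0.27, with normexp, and Cyb5a to 0.035 with quantile normalization. Median scaling gave 2674 genes called lower and 1151 higher, against 2102 lower and 2088 higher, and no filter 1399 higher and 1499 lower. Of the list genes, those called higher numbered 2 with median scaling, 8 with quantile, 14 with normexp and 2 with no filter, which left 2 called lower. Same-numbered arrays of the 2 groups, which also share a slide column, correlated at 0.0131, 0.0647, 0.117 and 0.00118 in their deviations. Arrays of different numbers correlated at -0.0994 to 0.1. Values this small over 4 arrays a group do not decide whether the numbers pair the arrays. With the replicate block Scd2 passed (-0.38), Elovl5 did not (-0.60), and list genes called were 6 lower and 2 higher. Leaving out each array in turn gave 1273 to 2029 genes lower and 1247 to 2077 higher, 0 to 2 of the 8 genes lower, and 2 to 8 list genes lower and 2 to 9 higher. The differences then ran from -0.69 to -0.48 for Fads1, -0.39 to -0.16 for Fads2, -0.26 to -0.074 for Fads3, -0.44 to -0.30 for Scd2, -0.68 to -0.45 for Elovl5, -0.23 to 0.029 for Elovl2, 0.25 to 0.35 for Elovl1 and -0.74 to -0.11 for Elovl3, and the ratio of Fads3 over Fads2 from -0.10 to 0.29. The ratios were not refitted under the block and variance alternatives.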
